A study of Mus musculus with 8 samples.

Results

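Macrophages and monocytes were followed in mouse skin through 10 marker genes, Adgre1, Csf1r, Cd68, Cd14, Ms4a7, Ms4a6d, Aif1, Mpeg1, Trem2 and Fcgr1. Every probe set that the array's annotation pairs with these symbols was taken, which gave 17 of the 45101 probe sets on the array, each a group of short probes that together report a transcript. Values are log2 signals, so that a difference of 1 is a doubling. Only probe sets brighter than the array median on 2 or more of the 8 arrays were tested. Of the marker probe sets, 13 passed, at least 1 for each of the 10 genes, and 4 did not. For Ms4a6d and Aif1 it was the 6 arrays of DNCB-treated skin that carried them over this limit, and for Cd68 and Adgre1 it was 5 of those arrays. For these genes, passing the limit was thus not independent of their difference from sham skin.

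Total RNA of frozen skin from the back of Balb/c mice was hybridised to 8 arrays. In the DNCB+HY209 group (n = 3) the sensitising hapten DNCB (dinitrochlorobenzene), used to model atopic dermatitis, was put on the skin for 15 days, and a polyethylene glycol (PEG) gel with 5% HY209, which activates the bile acid receptor GPCR19, was given over the last 7 days. The DNCB group (n = 3) had the same hapten for 15 days, with vehicle over the last 7 days. The sham group (n = 2) had neither agent according to its titles and source names, although its protocol fields repeat the text of the DNCB model, and this doubt bears on every comparison with sham. The labels give no genotype other than the strain and no age, and do not say whether each array stands for a different mouse. The p-values therefore measure the spread between these samples, which may be technical.

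Macrophages and monocytes are phagocytes that depend on the growth factor receptor CSF1R and on the transcription factor PU.1, which is encoded by Spi1. Skin holds resident dermal macrophages, and blood monocytes enter it during inflammation and mature there. Several of the 10 genes are not restricted to macrophages: Langerhans cells also carry Csf1r, Adgre1 and Aif1, and neutrophils also carry Cd14. The level of such a gene in whole skin follows both how many of these cells the piece holds and how much of the RNA each cell makes, and the 2 cannot be told apart in these data.

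The arrays differed in quality measures that go with the marker levels. The median log2 signal of an array lay between 4.07 and 4.22, and no detection calls were analysed, so that a fold against a signal near or under these values is approximate. The mean log2 signal of 7 bacterial spike-in probe sets was 10.89, 9.97 and 9.87 on the DNCB+HY209 arrays, 10.71, 9.25 and 10.83 on the DNCB arrays and 10.99 and 11.62 on the sham arrays. It was thus lowest on DNCB array 2 and highest on sham array 2. The Gapdh signal at the 3' end over that at the 5' end, a ratio that rises as RNA degrades, was 7.35 on DNCB array 3 and between 2.10 and 4.46 on the others. Keratinocyte genes averaged 8.67 to 12.27 on the arrays, as skin should show, and skeletal muscle genes averaged 9.51 to 11.96, so that muscle transcripts were measured at high signal too. Across the tested probe sets, the correlation between arrays was 0.927 to 0.973 inside a group and 0.833 to 0.975 across groups.

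Promoters were available for 6 of the 10 markers. Those of Ms4a7, Aif1 and Mpeg1 are shown because these genes had similar log2 differences between DNCB and sham skin, and that of Trem2 because it did not share them. Each is the RefSeq window (build GRCm38.p6) that runs from 250 bases before to 50 bases after the gene's start, printed 5' to 3' in the direction of the gene. Capitals mark GAGGAA, the core letters that PU.1 is known to bind, searched on both strands, so that a match on the opposite strand reads TTCCTC. The windows lie at chr19:11336097-11336396 on the minus strand for Ms4a7, chr17:35176003-35176302 on the minus strand for Aif1, chr19:12460520-12460819 on the plus strand for Mpeg1 and chr17:48346151-48346450 on the plus strand for Trem2.
Ms4a7: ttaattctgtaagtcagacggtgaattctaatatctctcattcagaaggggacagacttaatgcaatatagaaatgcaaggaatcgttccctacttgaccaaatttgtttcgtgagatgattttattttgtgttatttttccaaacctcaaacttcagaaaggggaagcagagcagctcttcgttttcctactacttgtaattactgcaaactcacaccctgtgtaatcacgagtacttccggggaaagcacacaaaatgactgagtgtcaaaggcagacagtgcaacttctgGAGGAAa
Aif1: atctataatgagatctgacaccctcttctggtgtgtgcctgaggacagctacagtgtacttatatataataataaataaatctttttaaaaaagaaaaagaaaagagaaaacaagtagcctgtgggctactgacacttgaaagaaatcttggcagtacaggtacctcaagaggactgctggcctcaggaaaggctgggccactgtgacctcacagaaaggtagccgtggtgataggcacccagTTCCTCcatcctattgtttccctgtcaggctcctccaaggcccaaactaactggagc
Mpeg1: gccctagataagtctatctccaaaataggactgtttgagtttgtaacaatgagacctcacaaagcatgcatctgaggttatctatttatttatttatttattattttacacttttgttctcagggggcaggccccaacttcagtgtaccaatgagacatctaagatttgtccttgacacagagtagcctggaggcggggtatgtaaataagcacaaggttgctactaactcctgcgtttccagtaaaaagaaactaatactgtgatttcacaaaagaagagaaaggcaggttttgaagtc
Trem2: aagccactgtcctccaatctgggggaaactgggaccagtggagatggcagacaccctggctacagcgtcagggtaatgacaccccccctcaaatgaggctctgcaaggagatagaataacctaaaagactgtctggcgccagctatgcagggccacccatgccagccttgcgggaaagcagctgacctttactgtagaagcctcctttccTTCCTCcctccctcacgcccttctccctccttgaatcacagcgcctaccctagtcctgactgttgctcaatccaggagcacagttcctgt

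The Ms4a7 window held 1 match, 43 bases after the gene's start and on the gene's own strand. The Aif1 window held 1 match, 7 bases before the start, and the Trem2 window 1 match, 40 bases before it, both on the opposite strand. The Mpeg1 window held 0. A second Ms4a7 window, at chr19:11334646-11334945 on the minus strand, also held 0, while that of Cd68 held 2 and that of Fcgr1 held 1. Of the 32851 mouse promoters of the same length in the RefSeq table, 28.3% hold these letters, so that a match is common. The AP-1 letters TGANTCA, which 7.81% of promoters hold, occurred 9 bases before the start in the Trem2 window, 81 bases before it in the second Ms4a7 window and at 2 places in the Cd68 window, 149 and 24 bases before it, and in none of the other 4 windows. These matches are descriptions of the letters and do not show that a factor binds there.

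Most of the 10 markers had higher signals in DNCB skin than in sham skin, and Ms4a6d rose beyond the test's threshold. That call was lost when any 1 of 5 arrays was left out and when the spike-in level entered the fit. The Ms4a6d probe set passed the limit on low signals only through arrays of DNCB-treated skin. With HY209 added, the differences from DNCB skin were negative for all 10 genes at their brightest tested probe set, and 0 passed the threshold. At their brightest probe sets Trem2 and Fcgr1 were not higher in DNCB skin, and their DNCB and sham arrays overlapped. A dimmer probe set of Fcgr1, which was not tested, read higher in DNCB skin than in sham skin. In what follows, adjusted p is that of limma with Benjamini-Hochberg adjustment over all 24675 probe sets tested, with a threshold of 0.05, and SE is limma's moderated standard error.

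**Figure D1:**
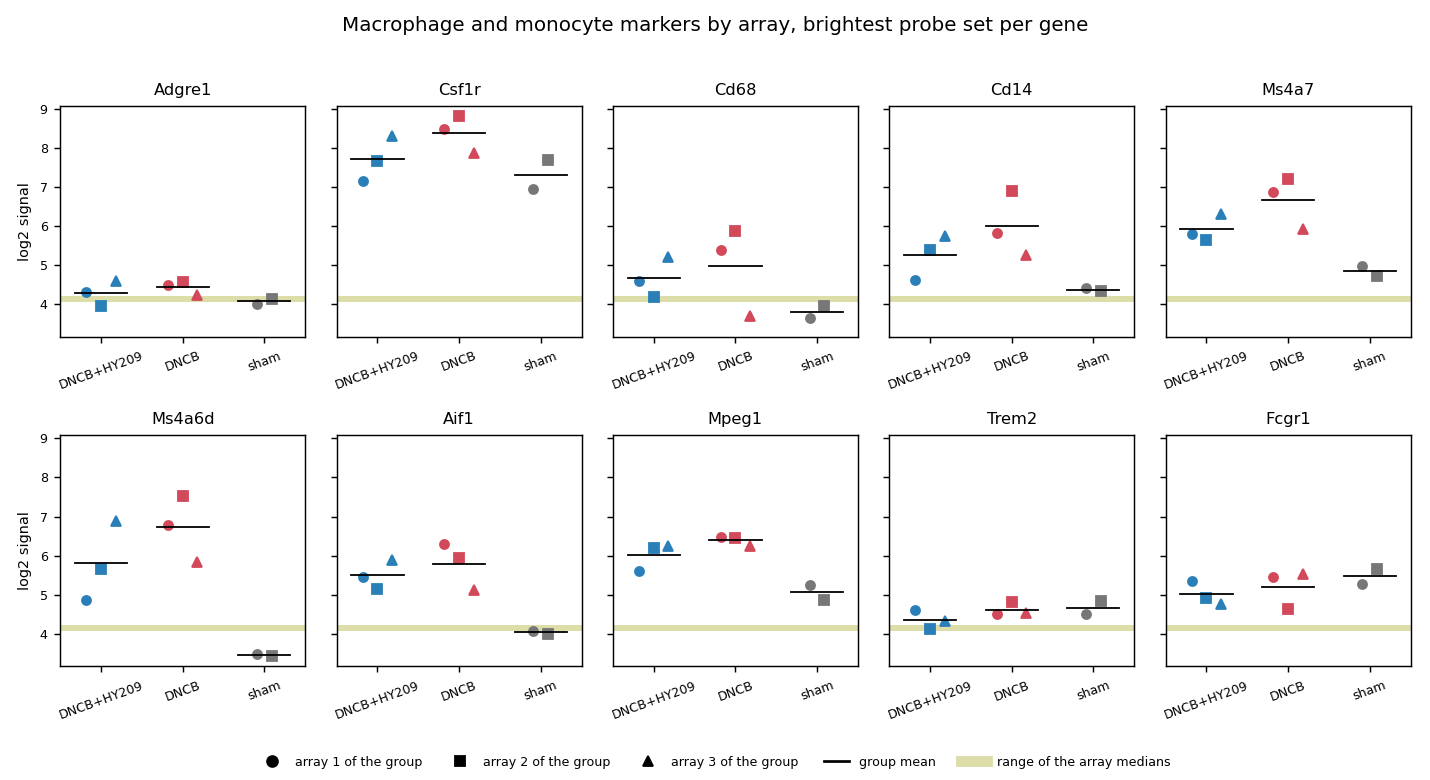
Log2 signal of the 10 markers, each by its brightest tested probe set, on every array of DNCB+HY209 (n = 3), DNCB (n = 3) and sham skin (n = 2), with a line at the group mean and a band over the range of the array medians, 4.07 to 4.22. For Ms4a6d probe set 1419599_s_at the sham arrays sit at 3.50 and 3.44, below all 6 arrays of DNCB-treated skin, while for Trem2 probe set 1421792_s_at and Fcgr1 probe set 1436625_at the groups overlap.

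Csf1r encodes the receptor for the growth factors CSF1 and IL-34, which keep macrophages alive. Its probe set 1419872_at read 7.15, 7.67 and 8.30 on the DNCB+HY209 arrays, 8.49, 8.81 and 7.88 on the DNCB arrays and 6.96 and 7.68 on the sham arrays. The 3 DNCB arrays lay above both sham arrays, and the DNCB+HY209 arrays overlapped both other groups. The difference between DNCB and sham was 1.07 (SE 0.41, adjusted p = 0.273). A second Csf1r probe set, 1419873_s_at, read 6.08, 5.92 and 6.43 with HY209, 7.00, 7.18 and 6.26 in DNCB skin and 5.79 and 6.16 in sham skin. Its pattern was much like that of the first, with a difference of 0.84 (SE 0.31, adjusted p = 0.266) between DNCB and sham. The suffix _s_at means that its probes match several transcripts, which may come from other genes. The third, 1423593_a_at, varied less, with 5.25, 4.89 and 5.38 in DNCB+HY209, 5.40, 5.47 and 5.31 in DNCB and 4.96 and 5.28 in sham skin. Its difference between DNCB and sham was 0.27 (SE 0.22, adjusted p = 0.531), so the probe sets of the gene shared a direction and differed in size.

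Adgre1 encodes the surface protein by which mouse macrophages are most often recognised. It read 4.32, 3.97 and 4.59 with HY209, 4.49, 4.58 and 4.23 in DNCB skin and 4.00 and 4.15 in sham skin, all close to the array medians. The DNCB arrays lay above the sham arrays by a narrow margin, with a difference of 0.36 (SE 0.23, adjusted p = 0.444) and a 95% interval of -0.16 to 0.88.

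Cd14 encodes the co-receptor that hands bacterial lipopolysaccharide to TLR4. Its log2 signal was 4.63, 5.39 and 5.74 on the DNCB+HY209 arrays, 5.82, 6.89 and 5.27 on the DNCB arrays and 4.42 and 4.33 on the sham arrays. All 6 arrays of DNCB-treated skin were above both sham arrays. DNCB skin averaged 5.99 ± 0.82 (SD, n = 3) and sham skin 4.38 ± 0.06 (SD, n = 2), a difference of 1.62 (SE 0.46, 3.06-fold, adjusted p = 0.162).

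Fcgr1 encodes the high-affinity Fc receptor for IgG, CD64. Its brighter probe set 1436625_at read 5.35, 4.91 and 4.77 with HY209, 5.46, 4.65 and 5.52 in DNCB skin and 5.27 and 5.67 in sham skin. The groups overlapped, and the difference between DNCB and sham was -0.26 (SE 0.31, adjusted p = 0.661), with a 95% interval of -0.96 to 0.43. A dimmer probe set, 1417876_at, which did not pass the limit on low signals, read 3.34, 3.24 and 3.96 with HY209, 3.91, 3.40 and 3.24 in DNCB skin and 2.24 and 3.11 in sham skin. Here all 6 arrays of DNCB-treated skin were above the sham arrays, so the 2 probe sets of Fcgr1 disagreed in direction, and no test was made of the dimmer.

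Trem2 encodes a lipid-sensing receptor that signals through the adaptor TYROBP and is found on lipid-associated macrophages. Probe set 1421792_s_at read 4.60, 4.13 and 4.33 with HY209, 4.50, 4.81 and 4.54 in DNCB skin and 4.51 and 4.84 in sham skin. The groups overlapped, with a difference of -0.06 between DNCB and sham (SE 0.22, adjusted p = 0.896, 95% interval -0.55 to 0.43). Probe set 1421226_at, which was above the array median on the 2 sham arrays only, read 4.16, 3.81 and 3.95 with HY209, 3.90, 3.62 and 4.05 in DNCB skin and 4.18 and 4.55 in sham skin. It was lower on each DNCB array than on either sham array, by 0.51 on average (SE 0.22, adjusted p = 0.319). It passed the limit on low signals only through the group where it was high, so nothing is read from this difference. An interval of -0.55 to 0.43 holds neither a halving nor a doubling of the Trem2 signal of the brighter probe set.

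Cd68 encodes macrosialin, a membrane protein of the lysosomes of phagocytes. It read 4.60, 4.19 and 5.22 on the DNCB+HY209 arrays, 5.39, 5.88 and 3.70 on the DNCB arrays and 3.64 and 3.95 on the sham arrays. DNCB array 3 fell between the sham arrays, while the other DNCB arrays were well above them. The difference of 1.20 between DNCB and sham had an SE of 0.56 (adjusted p = 0.345) and came to 0.75 without DNCB array 2 and 1.85 without DNCB array 3, and its SD of 1.15 over the DNCB arrays was the widest among the markers.

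Ms4a7 and Ms4a6d belong to the membrane-spanning 4A family, whose members on chromosome 19 include several that mark monocytes and macrophages. Ms4a7 probe set 1424754_at read 5.80, 5.65 and 6.31 with HY209, 6.87, 7.21 and 5.93 in DNCB skin and 4.99 and 4.72 in sham skin. The 6 arrays of DNCB-treated skin lay above the sham arrays. The difference between DNCB and sham was 1.82 (SE 0.37, 3.52-fold, 95% interval 0.98 to 2.65), with adjusted p = 0.062. A second Ms4a7 probe set, 1445365_at, stayed between 2.10 and 2.34 on all 8 arrays, far below the array medians, and was not tested.

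Ms4a6d had the largest difference among the markers. Probe set 1419599_s_at read 4.86, 5.67 and 6.89 on the DNCB+HY209 arrays, 6.79, 7.53 and 5.85 on the DNCB arrays and 3.50 and 3.44 on the sham arrays. As with the other probe sets whose names end in _s_at, those of Aif1 and Trem2 among them, related transcripts may share this signal. The sham arrays were below their array medians and close together, and every array of DNCB-treated skin was above its own. Ms4a6d rose in DNCB skin, with a mean of 6.72 ± 0.84 (SD, n = 3) against 3.47 ± 0.05 (SD, n = 2) in sham skin. The difference was 3.25 (SE 0.59, 9.53-fold, 95% interval 1.92 to 4.58, adjusted p = 0.043). Only the 6 arrays of DNCB-treated skin carried this probe set over the limit on low signals. Its entry to the test was thus not independent of this difference. In a limma fit without that limit adjusted p was 0.0437. A dimmer probe set of the gene, 1419598_at, was above its array's median on 1 array and not tested, and read 2.74, 2.88 and 3.75 with HY209, 4.11, 4.93 and 3.14 in DNCB skin and 2.33 and 2.35 in sham skin. It put the arrays in much the same order, with DNCB array 2 highest and both sham arrays lowest. The third, 1449539_at, stayed between 2.00 and 2.17 on all 8 arrays.

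Aif1 encodes IBA1, a calcium-binding protein that bundles actin in macrophages. It read 5.45, 5.16 and 5.89 with HY209, 6.29, 5.94 and 5.12 in DNCB skin and 4.08 and 4.00 in sham skin. All 6 arrays of DNCB-treated skin were at least 1 unit above the sham arrays. DNCB skin exceeded sham skin by 1.75 (SE 0.34, 3.35-fold, adjusted p = 0.0556).

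Mpeg1 encodes perforin-2, a pore-forming protein that attacks bacteria inside phagocytes. It read 5.60, 6.19 and 6.24 with HY209, 6.47, 6.46 and 6.25 in DNCB skin and 5.25 and 4.88 in sham skin. The DNCB arrays were close together and above every array of the other groups, though the lowest of them was only narrowly above the highest DNCB+HY209 array. The difference between DNCB and sham was 1.33 (SE 0.26, 2.51-fold, adjusted p = 0.0513).

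**Figure D2:**
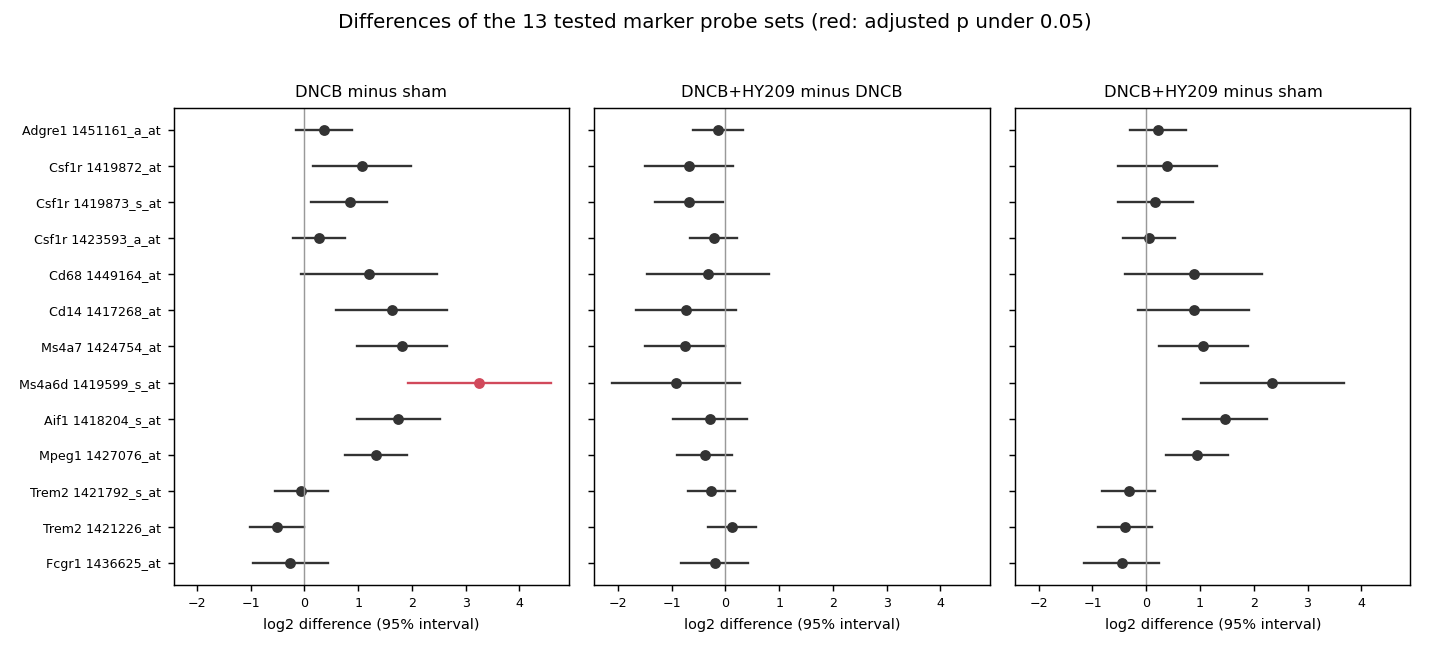
Log2 difference of each tested marker probe set with its 95% interval, for DNCB minus sham, DNCB+HY209 minus DNCB and DNCB+HY209 minus sham. The Ms4a6d difference between DNCB and sham skin, 3.25, is the point past the threshold, and in the panel of DNCB+HY209 minus DNCB 12 of the 13 points lie below 0.

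Between DNCB and sham skin, 1 of the 13 tested marker probe sets passed the threshold, Ms4a6d, where 0.956% of all probe sets did. Another 3 genes, Mpeg1, Aif1 and Ms4a7, had adjusted p-values of 0.0513 to 0.062. For 9 of the 13 probe sets every DNCB array lay above both sham arrays, which held for 21.0% of all probe sets. Of these 9, 3 are probe sets of Csf1r. For 1, Trem2 1421226_at, every DNCB array lay below, which held for 12.6%, but it passed the limit on low signals only through the sham arrays. Unadjusted p was under 0.05 for 8 of the 13, against 15.3% of all probe sets. The median difference over the markers was 1.07, against 0.11 over all probe sets tested. When each gene was entered by its brightest probe set alone, 4 of the 10 passed in a fit of 12420 genes in which 1.83% did: Ms4a6d (adjusted p = 0.0365), Mpeg1 (0.0396), Aif1 (0.0447) and Ms4a7 (0.0474). The probe sets of Ms4a6d, Aif1, Cd68 and Adgre1 passed the limit on low signals only through arrays of DNCB-treated skin. Nothing is therefore read from their part in the counts of this paragraph.

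The call on Ms4a6d was lost when DNCB+HY209 array 2 (adjusted p = 0.083), DNCB array 1 (0.145), DNCB array 2 (0.114), sham array 1 (0.165) or sham array 2 (0.25) was left out, and its difference was still 2.85 without DNCB array 2. When the spike-in signal entered the fit as a covariate, the difference was 2.25 and adjusted p was 0.184. The same covariate brought the difference between DNCB and sham to 0.72 for Cd14, 0.55 for Cd68 and 0.63 for Csf1r 1419872_at, each more than 1.5 times smaller than without it. It was 1.56 for Aif1, 1.33 for Ms4a7 and 1.05 for Mpeg1 with the covariate.

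With HY209 the marker signals lay between those of DNCB and sham skin for most genes, but 0 of the 13 probe sets differed from DNCB skin at the threshold. Over the whole array the share past the threshold was 0%. All adjusted p-values of the markers were 1. Unadjusted p was under 0.05 for 2 of the 13, against 1.24% of all probe sets. These were Csf1r 1419873_s_at, with a difference of -0.67 (SE 0.28, 95% interval -1.30 to -0.04), and Ms4a7, with -0.75 (SE 0.33, 95% interval -1.50 to -0.01).

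Of the 13 point estimates 12 were negative, Trem2 1421226_at, with 0.12, being the exception. The difference of DNCB+HY209 from DNCB was -0.91 (SE 0.53) for Ms4a6d, -0.74 (SE 0.41) for Cd14, -0.68 (SE 0.36) for Csf1r 1419872_at, -0.38 (SE 0.23) for Mpeg1, -0.32 (SE 0.51) for Cd68 and -0.28 (SE 0.31) for Aif1. It was -0.26 (SE 0.20) for Trem2 1421792_s_at, -0.19 (SE 0.28) for Fcgr1 and -0.14 (SE 0.20) for Adgre1. For Mpeg1 the 3 DNCB+HY209 arrays all lay below the 3 DNCB arrays, which held for 2.04% of all probe sets, and it was the only marker of which this was true. By gene, 10 of 10 differences were negative, against 43% of all genes, and their median was -0.35, against 0.03 for all genes. All of the markers but Trem2 and Fcgr1 go up and down together between arrays, so the 10 directions are not separate observations. In the same comparison 10 of 10 endothelial genes (median -0.65) and 10 of 10 pan-leukocyte genes (median -0.25) were negative too. Of the hair follicle genes 16 of 16 were positive, as were 12 of 14 skeletal muscle genes. Leaving out DNCB array 2 turned the sign for Cd68, to 0.13, and leaving out DNCB+HY209 array 2 turned it for Adgre1, to 0.02. Without DNCB+HY209 array 1 the difference was -0.44 for Ms4a6d, -0.43 for Cd14 and -0.40 for Csf1r 1419872_at, and without DNCB+HY209 array 3 it was -1.46 for Ms4a6d. Without DNCB array 2 it was -0.51 for Ms4a6d, -0.29 for Cd14 and -0.48 for Ms4a7. The 95% interval for Ms4a6d ran from -2.10 to 0.27.

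Between DNCB+HY209 and sham skin, 0 of the 13 probe sets passed the threshold in limma, which 0.267% of all probe sets passed. Unadjusted p was under 0.05 for 4 of the 13, against 18.6% of all. The differences were 2.34 (SE 0.59, 5.06-fold, adjusted p = 0.142) for Ms4a6d, 1.46 (SE 0.34, 2.76-fold, adjusted p = 0.127) for Aif1, 1.06 (SE 0.37, adjusted p = 0.211) for Ms4a7 and 0.95 (SE 0.26, adjusted p = 0.155) for Mpeg1. Both Cd14 (adjusted p = 0.324) and Cd68 (adjusted p = 0.400) differed by 0.88. For these 6 genes each DNCB+HY209 array lay above both sham arrays, which held for 26.7% of all probe sets. Of them Ms4a6d, Aif1 and Cd68 passed the limit on low signals only through arrays of DNCB-treated skin, so nothing is read from their part in this count. The same holds for Ms4a6d and Aif1 in the count of unadjusted p under 0.05. Trem2 1421226_at was lower on all 3 DNCB+HY209 arrays, by 0.40 (SE 0.22, adjusted p = 0.351), which held for 14.2%. It passed the limit on low signals only through the sham arrays, so nothing is read from this either. The remaining genes were closer to sham skin, with 0.39 for Csf1r 1419872_at, 0.22 for Adgre1 and -0.46 for Fcgr1. With the spike-in covariate the differences between DNCB+HY209 and sham were 1.31 for Ms4a6d, 1.27 for Aif1, 0.66 for Mpeg1, 0.57 for Ms4a7, 0.21 for Cd68 and -0.04 for Cd14. The 3 comparisons share arrays pairwise, so they are given side by side and not as independent evidence.

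Arrays of the same group differed in a way that ran through the markers. DNCB array 2 held the highest of the 8 signals for 7 of the 13 tested probe sets, and sham arrays 1 and 2 the lowest for 3 and 5. Within DNCB skin, array 3 was lowest for 10 of the 13, and for 9 of the 13 its signal fell inside the range of the DNCB+HY209 arrays. Among the DNCB+HY209 arrays, array 3 was highest for 10. Averaged over the 10 genes, the log2 signal was 5.24, 5.29 and 5.83 with HY209, 6.06, 6.28 and 5.43 in DNCB skin and 4.66 and 4.77 in sham skin. The array with the strongest Gapdh 3' bias was thus the DNCB array with the lowest marker signal. An alternative fit with this bias as a covariate is reported further below. Whether RNA quality lowered the markers on this array was not tested.

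The markers differed in how closely they followed each other. Set against the mean of the other 9 over the 8 arrays, r was 0.98 for Ms4a7, 0.95 for Ms4a6d, 0.92 for Cd14, 0.91 for Aif1 and 0.88 for Csf1r. It was 0.86 for Cd68 and for Mpeg1 and 0.83 for Adgre1. Trem2, with -0.06, and Fcgr1, with -0.59, stood outside this group at their brightest probe sets. After the mean of each group of arrays was taken out, r was still 0.92 for Ms4a7 and 0.91 for Cd68, 0.45 for Mpeg1 and -0.72 for Fcgr1. These are descriptions over 8 arrays that share their hybridisation and treatment.

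**Figure D3:**
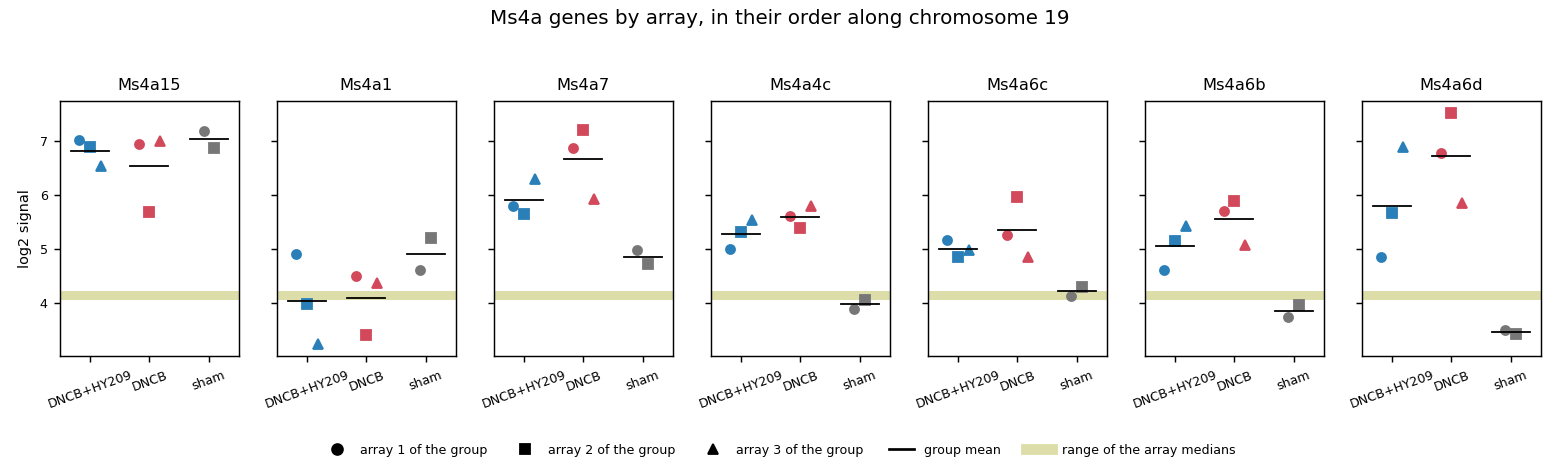
Log2 signal of the tested Ms4a family genes on each array of DNCB+HY209, DNCB and sham skin, in their order along chromosome 19. Ms4a7, Ms4a4c, Ms4a6c, Ms4a6b and Ms4a6d are lower on both sham arrays than on any other array, and Ms4a15 and Ms4a1 are not.

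Because Ms4a7 and Ms4a6d led the markers, the rest of their family was examined. Of 17 Ms4a genes with a probe set, 7 could be tested, and Ms4a4c and Ms4a6b rose in DNCB skin relative to sham skin, beside Ms4a6d. All 3 passed the limit on low signals only through the 6 arrays of DNCB-treated skin, and the family was examined because of Ms4a6d, so nothing is read from their number. Ms4a4c is an interferon-inducible member of the family in mouse leukocytes. Its probe set 1420671_x_at read 5.00, 5.32 and 5.55 with HY209, 5.61, 5.39 and 5.80 in DNCB skin and 3.90 and 4.06 in sham skin, a difference of 1.62 between DNCB and sham (SE 0.22, adjusted p = 0.0205). Its other probe set, 1450291_s_at, read 3.67, 3.84 and 4.31 with HY209, 4.01, 4.29 and 4.31 in DNCB skin and 2.33 and 2.21 in sham skin. That probe set rose by 1.93 in DNCB skin (SE 0.24, adjusted p = 0.0132) and by 1.67 in DNCB+HY209 skin (SE 0.24, adjusted p = 0.0365), both relative to sham. The suffixes _x_at and _s_at mean that related transcripts may share the signal.

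Ms4a6b, a close relative of Ms4a6d, read 4.61, 5.16 and 5.43 with HY209, 5.70, 5.90 and 5.08 in DNCB skin and 3.74 and 3.97 in sham skin. It rose by 1.70 in DNCB skin (SE 0.31, adjusted p = 0.0428), and its difference in DNCB+HY209 skin was 1.21 (adjusted p = 0.144). Ms4a6c differed by 1.14 between DNCB and sham at probe set 1450234_at (SE 0.30, adjusted p = 0.134) and by -0.42 at 1457725_at (adjusted p = 0.427), so its probe sets disagreed. Ms4a1, which encodes the B cell antigen CD20, differed by -0.80 (SE 0.48, adjusted p = 0.426), and Ms4a15 by -0.49 (SE 0.39, adjusted p = 0.533). Among 21 Ms4a genes and Mpeg1 in the order of the RefSeq annotation of chromosome 19, the 5 Ms4a genes higher at their brightest probe set lie within places 12 to 19. Ms4a4a, Ms4a4b and Ms4a4d, at places 13, 15 and 18, were not tested. Ms4a15 is at place 2 and Ms4a1 at place 9, and Mpeg1, which was also higher in DNCB skin, is last of the 22. Ms4a4c, Ms4a6b and Ms4a6d passed the limit on low signals only through DNCB-treated skin, so nothing is read from this order. The family's calls depended on the arrays and on the spike-in level. With that level as a covariate adjusted p was 0.228 for Ms4a6b and, for Ms4a4c, 0.0931 at 1420671_x_at and 0.0681 at 1450291_s_at between DNCB and sham. That on Ms4a6b was lost without DNCB+HY209 array 2, DNCB array 1 or 2 or either sham array (adjusted p up to 0.191). That on Ms4a4c was lost at 1420671_x_at without DNCB+HY209 array 2, DNCB array 1 or either sham array (up to 0.119), and at 1450291_s_at without either sham array (up to 0.115). The call on 1450291_s_at between DNCB+HY209 and sham was lost without any of 6 arrays, DNCB array 2 and DNCB+HY209 array 1 excepted (up to 0.192).

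The pathways around the markers were described with lists of genes, some of which hold markers too, and over all genes the median difference between DNCB and sham was 0.15 and 0.966% rose. Of all probe sets, 15.3% had an unadjusted p under 0.05 in that comparison. Some genes counted below passed the limit on low signals only through DNCB-treated skin, Irf8, Ccl12, Clec4d and Clec4n among them. Nothing is read from the part of such genes in these counts. Of the CSF1 receptor and myeloid transcription factor genes, 9 of 12 were tested and 0 passed between DNCB and sham in limma (4 with unadjusted p under 0.05), with a median difference of 0.59. Csf1 itself, the ligand of the receptor, differed by 0.70 (SE 0.31, adjusted p = 0.331), and Spi1 by 0.14 (SE 0.21, adjusted p = 0.741). Csf2rb, the shared signalling chain of the GM-CSF, IL-3 and IL-5 receptors, read 4.61, 5.75 and 6.08 with HY209, 5.97, 6.80 and 5.31 in DNCB skin and 3.67 and 3.99 in sham skin. All 6 arrays of DNCB-treated skin were above sham, with a difference of 2.20 for DNCB (SE 0.49, adjusted p = 0.0843). Only these 6 arrays carried Csf2rb over the limit on low signals. Of the monocyte recruitment genes, 8 of 12 were tested and 0 passed (3 with unadjusted p under 0.05), with a median of 0.59. Ccr2, the chemokine receptor of inflammatory monocytes, differed by 0.81 (SE 0.25, adjusted p = 0.201), and Ccr1 by 0.96 (SE 0.36, adjusted p = 0.275). Ccr1 passed the limit on low signals only through arrays of DNCB-treated skin. Cx3cr1, which marks patrolling monocytes and several resident macrophages, differed by -0.28 (SE 0.18, adjusted p = 0.446).

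Of the Fc, TREM and C-type lectin receptors and their adaptors, 13 of 14 were tested and 0 passed in limma (5 with unadjusted p under 0.05), with a median of 0.37. Tyrobp, the adaptor of Trem2 and many other myeloid receptors, read 6.08, 5.76 and 6.72 with HY209, 7.32, 7.42 and 5.96 in DNCB skin and 4.98 and 4.63 in sham skin. Unlike Trem2 it was higher on every array of DNCB-treated skin, with a difference of 2.10 for DNCB (SE 0.45, adjusted p = 0.0752). Clec7a, the beta-glucan receptor dectin-1, differed by 1.19 (SE 0.24, adjusted p = 0.0597). Of the CD14 and Toll-like receptor genes, 5 of 9 were tested and 0 passed (4 with unadjusted p under 0.05), with a median of 0.93. Tlr2 differed by 0.67 (SE 0.20, adjusted p = 0.185) and the adaptor Myd88 by 0.93 (SE 0.37, adjusted p = 0.299), while Tlr4 and Ly96, the lipopolysaccharide receptor itself, were below the limit on low signals. Tlr2 passed that limit only through arrays of DNCB-treated skin.

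Of the lysosome and phagosome genes, 14 of 16 were tested, and Ctss, the endosomal protease cathepsin S of antigen-presenting cells, passed. Ctss read 7.60, 8.10 and 8.61 with HY209, 8.70, 9.13 and 8.16 in DNCB skin and 5.63 and 6.07 in sham skin. It rose by 2.81 in DNCB skin (SE 0.37, 7.03-fold, adjusted p = 0.0172), and its difference in DNCB+HY209 skin was 2.25 (adjusted p = 0.055). The call between DNCB and sham was lost without DNCB array 1 or either sham array, with adjusted p up to 0.115, and with the spike-in covariate (0.0865). Cybb, the catalytic subunit of the phagocyte NADPH oxidase, differed by 1.00 (SE 0.21, adjusted p = 0.0636). Cybb passed the limit on low signals only through arrays of DNCB-treated skin. The median of the list was 0.68.

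Other genes of tissue macrophages did not share a direction. Of 16, 12 were tested and 0 passed in limma (6 with unadjusted p under 0.05), 6 differences between DNCB and sham were positive and 6 negative, and the median was 0.02. The complement genes C1qa, C1qb and C1qc, which macrophages make, had differences of 1.20 (SE 0.46), 1.14 (SE 0.31) and 1.26 (SE 0.41). For C1qb the difference of DNCB+HY209 from DNCB was -0.76 (SE 0.28). Gas6 differed by -0.93 (SE 0.36), the efferocytosis receptor Mertk by -0.66 (SE 0.24) and Apoe by -0.64 (SE 0.27) between DNCB and sham. Of the alternative activation genes, 5 of 10 were tested and 0 passed (3 with unadjusted p under 0.05). Retnla, a gene induced by interleukin 4, read 4.08, 3.61 and 3.52 with HY209, 4.06, 3.49 and 3.95 in DNCB skin and 5.01 and 5.26 in sham skin, with a difference of -1.30 for DNCB (SE 0.25, adjusted p = 0.0536). Retnla passed the limit on low signals only through the sham arrays, where it was high, so nothing is read from this difference. Of the classical activation genes, 9 of 11 were tested and Cxcl9, an interferon-gamma-induced chemokine, passed. Cxcl9 was tested only because arrays of DNCB-treated skin carried it over the limit on low signals. Cxcl9 read 5.58, 7.24 and 7.50 with HY209, 6.92, 6.95 and 7.41 in DNCB skin and 3.93 and 4.08 in sham skin, and rose by 3.09 in DNCB skin (SE 0.50, adjusted p = 0.0301). That call was lost without any of 6 arrays, DNCB+HY209 arrays 1 and 3 excepted, with adjusted p up to 0.175, and with the spike-in covariate (0.194). Between DNCB+HY209 and DNCB, 0 genes of these lists and of the Ms4a list passed in limma, and Ms4a7, C1qb and Il1b had an unadjusted p under 0.05. The medians of the 9 lists in that comparison ran from -0.37 to -0.09, against 0.03 over all genes.

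**Figure D4:**
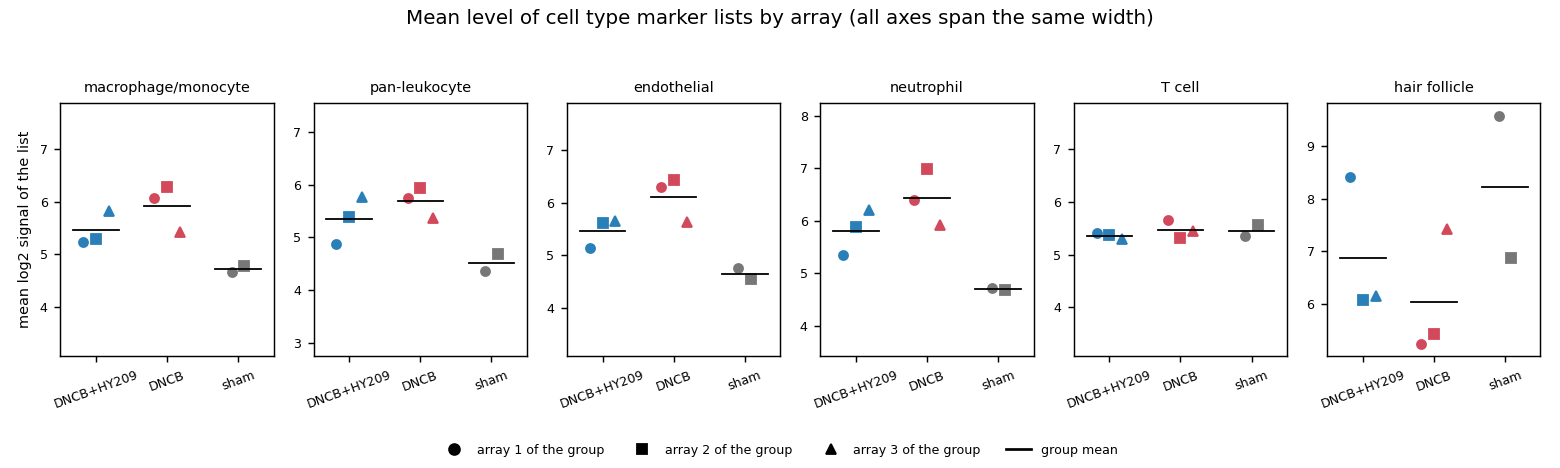
Mean log2 signal of 6 cell type marker lists on each array of DNCB+HY209, DNCB and sham skin, with a line at the group mean and vertical axes of equal width. The macrophage and monocyte, pan-leukocyte and endothelial lists are lowest on the sham arrays, as is the neutrophil list when it includes S100a8 and S100a9, the T cell list stays between 5.30 and 5.65, and the hair follicle list spans 5.25 to 9.58.

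Markers of other cell types moved with the macrophage markers, and their part in the results was not tested. The mean of 10 tested pan-leukocyte genes was 4.88, 5.39 and 5.76 with HY209, 5.74, 5.94 and 5.37 in DNCB skin and 4.36 and 4.68 in sham skin. In that list 2 of 10 rose in DNCB skin, Ptprc, which encodes CD45, by 2.77 (SE 0.50, adjusted p = 0.0421) and Cd52 by 2.04 (SE 0.38, adjusted p = 0.0480). Either call was lost without any of 6 arrays, DNCB+HY209 arrays 1 and 3 excepted (adjusted p up to 0.183 and 0.237), and with the spike-in covariate (0.259 and 0.28). Ptprc passed the limit on low signals only through arrays of DNCB-treated skin, as did Cd53 and Itgb2 of the same list. Of 8 tested neutrophil genes S100a8 and S100a9, which inflamed keratinocytes also make, rose by 5.73 (SE 0.69) and 6.01 (SE 0.77) in DNCB skin. The neutrophil mean was 5.35, 5.88 and 6.20 with HY209, 6.40, 6.98 and 5.93 in DNCB skin and 4.72 and 4.69 in sham skin. These 2 genes set that pattern. Over the other 6 the mean was 4.58, 4.70 and 4.90 with HY209, 5.05, 5.64 and 4.87 in DNCB skin and 4.87 and 4.81 in sham skin, so that the groups overlapped. Among them Il1r2, a decoy receptor for interleukin 1, was lower on each DNCB array than on either sham array, with a difference of -1.16 (SE 0.54, adjusted p = 0.339), and Camp, which encodes cathelicidin, differed by -0.26 (SE 0.32, adjusted p = 0.684). Mmp9, Fpr2, Csf3r and Cxcr2 went the other way, each higher on every DNCB array than on either sham array. Their differences were 1.71 (SE 0.54, adjusted p = 0.205), 0.99 (SE 0.41, adjusted p = 0.305), 0.46 (SE 0.27, adjusted p = 0.422) and 0.35 (SE 0.21, adjusted p = 0.424). The endothelial mean was 5.14, 5.62 and 5.65 with HY209, 6.29, 6.43 and 5.63 in DNCB skin and 4.75 and 4.55 in sham skin. All 10 differences between DNCB and sham were positive, against 63.2% of all genes, and Cdh5 and Eng passed the threshold. Emcn, Tie1 and Vwf passed the limit on low signals only through arrays of DNCB-treated skin, so nothing is read from their part in this. Of 9 tested Langerhans and dendritic cell genes, Fscn1, the actin bundler of mature dendritic cells, rose by 2.11 (SE 0.23). Calls on these genes also rested on single arrays. Those on S100a8 and S100a9 were lost without DNCB array 1 or either sham array (adjusted p up to 0.119 and 0.111), and that on Fscn1 without either sham array (up to 0.0661). That on Cdh5 was lost without DNCB+HY209 array 2, DNCB array 1 or 2 or either sham array (up to 0.178), and that on Eng without any array but DNCB+HY209 array 1 (up to 0.264). With the spike-in covariate those on S100a9 (0.0867), Cdh5 (0.124) and Eng (0.159) were lost, and those on S100a8 and Fscn1 (0.0406 each) were kept. The T cell mean was 5.41, 5.37 and 5.30 with HY209, 5.65, 5.31 and 5.45 in DNCB skin and 5.35 and 5.56 in sham skin, so that it did not follow the macrophage markers. The hair follicle mean was 8.42, 6.07 and 6.15 with HY209, 5.25, 5.44 and 7.43 in DNCB skin and 9.58 and 6.87 in sham skin. It was high on DNCB+HY209 array 1 and DNCB array 3, which had the lowest mean macrophage signal of their groups.

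The 5 genes outside the marker list whose signals were most like the markers' mean over the 8 arrays were Pde2a (r = 0.989), Tspan4 (0.982), Plekho1 (0.982), Adgra2 (0.981) and Col4a2 (0.979), of 12410 genes ranked. Tyrobp was next, with 0.977. With the group means taken out, r was 0.962 for Pde2a and 0.943 for Tspan4. Over all genes the median r was 0.33. It was 0.93 over the 10 endothelial genes, 0.85 over the 10 pan-leukocyte genes, -0.36 over the 8 T cell genes and -0.75 over the 16 hair follicle genes.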

How the data were processed

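The deposited values are log2 signals of probe sets. Affymetrix Expression Console and MAS5 are named in the submitters' processing notes, with no version, and normalization between arrays was not given in the sources used. The labels name the Mouse Gene 430A 2.0 array, whereas the table and the annotation that gave the symbols are of a larger array of that family (34945 probe sets with 1 symbol, 932 with several, 9160 unlisted). Entrez identifiers matched for 99.4%, and 0 symbols changed.

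Values were used as deposited. The 64 control probe sets were left out, and probe sets above the array median on at least 2 of 8 arrays were kept. All 8 arrays were fitted together with limma 3.58.1 (R 4.3.3, lmFit, eBayes with intensity trend, two-sided). A gene was represented by its brightest kept probe set. All members were named, and of the 21 lists (252 genes) those past the threshold and some of the 3 of largest moderated t, with other genes named for their role after their values were seen. The members and lists were chosen with earlier results of these data known. The alternatives were other normalizations, filters, variance models, covariates, the replicate block and left-out arrays. The scripts were tested on simulated data. The number of arrays limits the precision. Figures were drawn with matplotlib 3.10.9 in Python 3.11.15.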

Additional observations from a re-analysis of the deposited data

How the results depend on the processing

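Between DNCB and sham skin the number of marker probe sets past the threshold was 1 as reported, with no filter, without the intensity trend, with robust variances, with array weights and in a fit of the 2 groups alone. It was 4 after quantile normalization (which put the median difference of all probe sets at -0.01 in place of 0.11) and 4 with 1 probe set per gene. It was 5 with the Gapdh 3' minus 5' signal as a covariate, which added Cd14. It was 0 with each array centred on its median, with signals above the median required on all 8 arrays (which keeps 8 of the marker probe sets and drops Ms4a6d), with a covariate for the spike-in level, and with the arrays of lowest and highest spike-in level (DNCB array 2, sham array 2) left out, a setting chosen after seeing the data. Leaving out 1 array at a time gave 0 to 3. Same-numbered arrays did not deviate together (r of -0.62 to 0.24, over 0.1 in 3 of 7 pairs), and with the replicate number as a block the count was 0. The adjusted p of Ms4a6d ran from 0.0143 to 0.411 over the alternatives and its difference from 2.25 to 3.69. Between DNCB+HY209 and DNCB the count was 0 in all alternatives, the block included. Between DNCB+HY209 and sham it was 2 with array weights (Mpeg1 and Ms4a6d), whose estimation stopped before it converged, 0 to 1 with 1 array left out, and 0 in the others, the block included. Over all probe sets the number past the threshold was 236 between DNCB and sham and 6 to 519 in the alternatives, and 66 between DNCB+HY209 and sham and 6 to 1125 in the alternatives. The causes of these shifts were not tested.

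With 1 array left out in turn, the difference ran from -0.47 to 0.02 for Fcgr1 and from -0.23 to 0.10 for Trem2 between DNCB and sham, and from -0.29 to 0.02 for Adgre1 and from -0.97 to 0.13 for Cd68 between DNCB+HY209 and DNCB. Between DNCB and sham, Fcgr1 came to 0.32 with the spike-in covariate, 0.02 without DNCB array 2 and 0.22 without both arrays of extreme spike-in level, and Trem2 to 0.10 without sham array 2 and 0.01 without that pair. Between DNCB+HY209 and DNCB, Adgre1 came to 0.02 without DNCB+HY209 array 2, and Cd68 to 0.13 both without DNCB array 2 and without the extreme pair. Between DNCB+HY209 and sham, Adgre1 came to -0.02 with array weights, and with the spike-in covariate Csf1r came to -0.07, Cd14 to -0.04 and Fcgr1 to 0.13. Genes near the array medians, Adgre1 and Trem2 above all, are limited by signal over background.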

Other observations

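Genes of skin tissue outside the leukocytes were measured on the same arrays and give the setting of the macrophage markers. Of 11 tested keratinocyte genes, 3 rose in DNCB skin relative to sham skin, Krt6a, Krt6b and Krt16, the keratins of wounded and inflamed epidermis, and the mean log2 signal of the list was 10.37, 11.34 and 12.27 with HY209, 11.72, 12.22 and 10.99 in DNCB skin and 9.08 and 8.67 in sham skin. The calls on Krt6b and Krt16 were kept without any 1 of the 8 arrays, and that on Krt6a was lost without DNCB+HY209 array 2, DNCB array 1 or 2 or either sham array (adjusted p up to 0.148). Of 12 tested fibroblast genes, Pdgfrb rose, a call lost without any of the same 5 arrays (up to 0.185). The median difference of that list between DNCB+HY209 and DNCB was -0.94, with 11 of 12 genes negative and 0 past the threshold in limma (6 of 12 with unadjusted p under 0.05, against 1.24% of all probe sets). Of 14 tested skeletal muscle genes Myh2, a fast myosin heavy chain, rose by 4.45 in DNCB skin (SE 0.48, 21.8-fold, adjusted p = 0.00743) and by 4.66 in DNCB+HY209 skin (SE 0.48, adjusted p = 0.0101), both relative to sham. Without sham array 1 both calls were lost (adjusted p up to 0.0584 and 0.085), and the second also without DNCB+HY209 array 2. Of 16 tested hair follicle genes, Krtap3-1, a hair keratin-associated protein, fell by 1.97 in DNCB skin (SE 0.37, adjusted p = 0.0473), a call kept only without DNCB+HY209 array 1 (up to 0.254). With the spike-in covariate adjusted p was 0.0658 for Myh2 and 0.236 for Krtap3-1 and for Krt6a between DNCB and sham, and 0.105 for Pdgfrb. Of 6 tested adipocyte genes 0 passed between DNCB and sham in limma (3 with unadjusted p under 0.05, against 15.3% of all probe sets), with a median of -1.23. Mast cell genes, 4 of 10 tested, had a median of 0.07 between DNCB and sham and of -0.28 between DNCB+HY209 and DNCB.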
